A study of Mus musculus with 8 samples.

Results

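The collagen chains are the genes for the polypeptides that wind, in 3s, into the triple helices of the collagen family. They were taken as the protein-coding genes whose symbol in the annotation of mouse build NCBIM37 (mm9) reads Col, a number, a and a number, and that reached 1 CPM (counts scaled to a gene total of 1000000) in 2 or more of the 8 libraries. Of 42 such genes, 39 qualified, among 14610 protein-coding genes that passed the same filter and 36536 genes with listed counts. *Col19a1*, *Col6a1* and *Col6a4* did not qualify. The libraries came from cochleas of mice of the strain B6;FVB-Tg(Lfng-EGFP)HM340Gsat/Mmucd, whose *Lfng* BAC transgene drives GFP in supporting cells of the organ of Corti (Deiters' cells, outer pillar cells, inner phalangeal cells and border cells). GFP+ cells, the brightest by fluorescence, and GFP- cells, labelled as the remaining types of cochlear cells, were sorted at postnatal day 1 (P1) and day 6 (P6) from freshly dissected, untreated tissue, with 2 replicates in each of the 4 groups. Cells of weak fluorescence were not collected in either fraction. Both fractions carried the transgene, and inner pillar cells and inner hair cells express it very weakly. The otic capsule was removed, and the stria vascularis, Reissner's membrane and lateral wall were dissected away at P1 and in part at P6, so the GFP- cells of the 2 ages differ in dissection as well as in age. By the paper's cell yields per cochlea and cell numbers per library, each GFP+ library pooled many cochleas. Labels do not say whether the replicates came from separate animals, so p-values measure the spread between these libraries and not between single animals.

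Collagens are the main structural proteins of the extracellular matrix. Fibrillar collagens build the fibrils of bone, skin and cartilage, FACIT collagens decorate or link such fibrils, and collagen IV forms the sheet-like network of basement membranes. In the inner ear, collagens II, IX and XI are components of the tectorial membrane, the gel above the hair cells, and mutations of *COL4A3*, *COL4A4* and *COL4A5* cause Alport syndrome, in which kidney disease is accompanied by hearing loss.

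The DNA next to 5 genes is shown first because their GFP+ to GFP- ratio differed between the ages or, for *Col22a1*, because it was higher in GFP+ cells at both ages. *Col4a4* (chr1:82447298-82583424, minus strand) and *Col4a3* (chr1:82583496-82718634, plus strand) lie head to head with 71 bases between their annotated starts, and these intergenic bases are printed on the plus strand. For *Col13a1* (chr10:61300984-61441856, minus strand), *Col22a1* (chr15:71626225-71864657, minus strand) and *Col7a1* (chr9:108855631-108886920, plus strand), the 250 bases before the annotated gene start are printed on the strand of the gene. Capitals mark 3 promoter motifs, each read on either strand. One was the TATA box, searched for as TATAAA. Another was the box known by its own letters, CCAAT. The last was the GC box, searched for by the letters GGGCGG. All coordinates and bases are of NCBIM37.

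Col4a4 to Col4a3, chr1:82583425-82583495, plus strand: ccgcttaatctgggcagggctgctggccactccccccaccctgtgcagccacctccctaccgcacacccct

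Col13a1, chr10:61441857-61442106, minus strand: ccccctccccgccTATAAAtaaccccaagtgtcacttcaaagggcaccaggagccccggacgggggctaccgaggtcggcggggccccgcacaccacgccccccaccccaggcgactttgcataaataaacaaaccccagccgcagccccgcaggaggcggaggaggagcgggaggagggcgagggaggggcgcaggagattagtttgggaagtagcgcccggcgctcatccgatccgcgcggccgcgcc

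Col22a1, chr15:71864658-71864907, minus strand: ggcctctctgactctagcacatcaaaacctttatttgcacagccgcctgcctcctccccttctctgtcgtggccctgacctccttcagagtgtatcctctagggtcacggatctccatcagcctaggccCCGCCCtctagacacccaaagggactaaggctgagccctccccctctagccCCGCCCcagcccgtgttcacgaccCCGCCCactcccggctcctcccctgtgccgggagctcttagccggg

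Col7a1, chr9:108855381-108855630, plus strand: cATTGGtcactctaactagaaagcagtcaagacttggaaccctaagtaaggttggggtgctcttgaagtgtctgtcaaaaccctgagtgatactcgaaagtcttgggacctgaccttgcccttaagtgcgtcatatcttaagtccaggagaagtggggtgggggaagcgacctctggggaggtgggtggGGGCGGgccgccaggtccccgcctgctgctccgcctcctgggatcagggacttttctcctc

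The interval between *Col4a4* and *Col4a3* held none of the 3 motifs. The *Col13a1* window held 1 TATA box, the *Col22a1* window 3 GC boxes and the *Col7a1* window 1 GC box and 1 CCAAT box. Over the 250 bases before the start of all 39 genes, a TATA box was present in 5, a CCAAT box in 15 and a GC box in 20, against 12.1%, 35.0% and 40.8% of all 21404 windows of protein-coding genes. These are matches of letters. Collagen IV genes came in 2 further head-to-head pairs. *Col4a1* and *Col4a2* overlap by 22 bases on chr8, and *Col4a6* and *Col4a5* are 1308 bases apart on chrX. *Col3a1* and *Col5a2* lie tail to tail on chr1 with 24614 bases between them.

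Between 17769024 and 67695039 counts fell on genes in each library, so 3 counts correspond to 0.0443 to 0.169 CPM. *Lfng* itself was at 2365 to 3755 CPM in the 4 GFP+ libraries and at 17.2 to 45.8 CPM in the 4 GFP- libraries. The summed level of 8 supporting cell markers was 4827 to 7558 CPM in GFP+ cells and 204 to 308 CPM in GFP- cells. A list of 10 mesenchyme and fibrocyte markers (among them *Otor*, *Coch* and *Pou3f4*) summed to 108 and 119 CPM in P1 GFP+ cells, to 354 and 1219 CPM in P6 GFP+ replicates 1 and 2, and to 4609 to 8294 CPM in GFP- cells. P6 GFP+ replicate 2 therefore stood apart from replicate 1, and over 738 genes that were more than 16-fold higher in GFP- cells at P1, collagens left out, its median difference from replicate 1 was 1.55 on the log2 scale (-0.05 between the P1 GFP+ replicates). The 39 collagen genes followed with a median of 1.07 (0.0018 between the P1 GFP+ replicates). Numbers of called collagen genes that rest on P6 GFP+ cells are given with and without this library, or as ranges over fits that leave out each library. Medians are given both ways only for the genes that process collagens. Collagen and marker medians, marker calls and counts of non-overlapping replicates rest on all libraries and were not repeated without it. Because the samples are bulk populations, fewer cells of a type and less RNA per cell cannot be told apart.

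Collagens took a larger part of the RNA in GFP- cells than in GFP+ cells, and the GFP- share at P6 was above that at P1. The 39 genes together held 1.34% and 1.61% of gene counts in P1 GFP+ replicates 1 and 2, 5.01% and 4.86% in P1 GFP-, 1.67% and 2.42% in P6 GFP+, and 9.0% and 8.98% in P6 GFP-. Replicates of the 4 groups did not overlap in this sum. Means were 1.48% ± 0.196, 4.93% ± 0.106, 2.04% ± 0.528 and 8.99% ± 0.016 (SD, n = 2). With 2 libraries against 2 no exact permutation test can reach 0.05, so the sum is given as a description. Fibrillar chains held 62.9% to 73.8% of collagen counts and FACIT chains 17.6% to 28.7%. *Col2a1*, the chain of cartilage fibrils, alone held 27.9% to 40.4%.

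**Figure D1:**
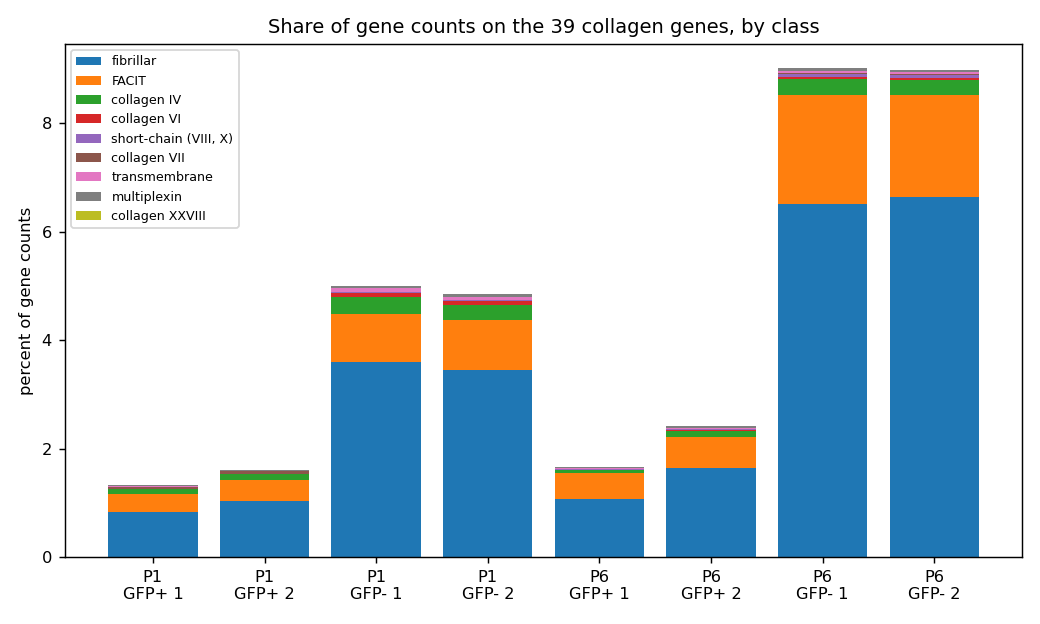
Percent of gene counts on the 39 collagen genes (y axis) in each of the 8 libraries (x axis), stacked by collagen class. Bars reach 1.34% to 2.42% in the 4 GFP+ libraries and 4.86% to 9.0% in the 4 GFP- libraries, and fibrillar chains form the largest segment in each.

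The mixture of chains also differed between the fractions. *Col1a2*, a chain of the type I fibrils of bone and connective tissue, took 1.04% and 0.862% of collagen counts in P1 GFP+ cells and 15.3% and 13.9% in P1 GFP- cells. At P6 its share was 2.82% and 7.06% in GFP+ replicates 1 and 2 and 12.3% in both GFP- libraries. *Col3a1*, the type III chain of elastic connective tissue, took 0.864% and 0.591% in P1 GFP+ cells, 11.1% and 9.98% in P1 GFP-, 1.25% and 2.54% in P6 GFP+, and 5.14% and 4.76% in P6 GFP-.

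Divided by exon length, *Col2a1* had the highest level of the 39 genes in each group. It was at 968 ± 161 CPM per kb in P1 GFP+ cells, 2498 ± 11.9 in P1 GFP-, 1037 ± 374 in P6 GFP+ and 5486 ± 295 in P6 GFP- (mean ± SD, n = 2). The next places in P1 GFP+ cells were held by *Col9a2* (604 ± 79.2 CPM per kb), *Col11a2* (353 ± 53.3), *Col9a3* (233 ± 32.7) and *Col9a1* (108 ± 9.98), and the replicates of each of these did not overlap with those of the next gene. In P6 GFP+ cells *Col11a2* (678 ± 10.6 CPM per kb) came before *Col9a2* (609.6 ± 24.6), and *Col9a3* and *Col9a1*, at 345 ± 19.4 and 335 ± 89.7, overlapped. In P1 GFP- cells *Col9a1* was second (677 ± 8.63 CPM per kb), while *Col9a2*, *Col3a1*, *Col1a2* and *Col9a3* followed between 591 and 626 CPM per kb with each overlapping its neighbour. The 5 chains of collagens II, IX and XI that are most abundant in GFP+ cells were also among the most abundant in GFP- cells, where *Col1a2* and *Col3a1* stood beside them.

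**Figure D2:**
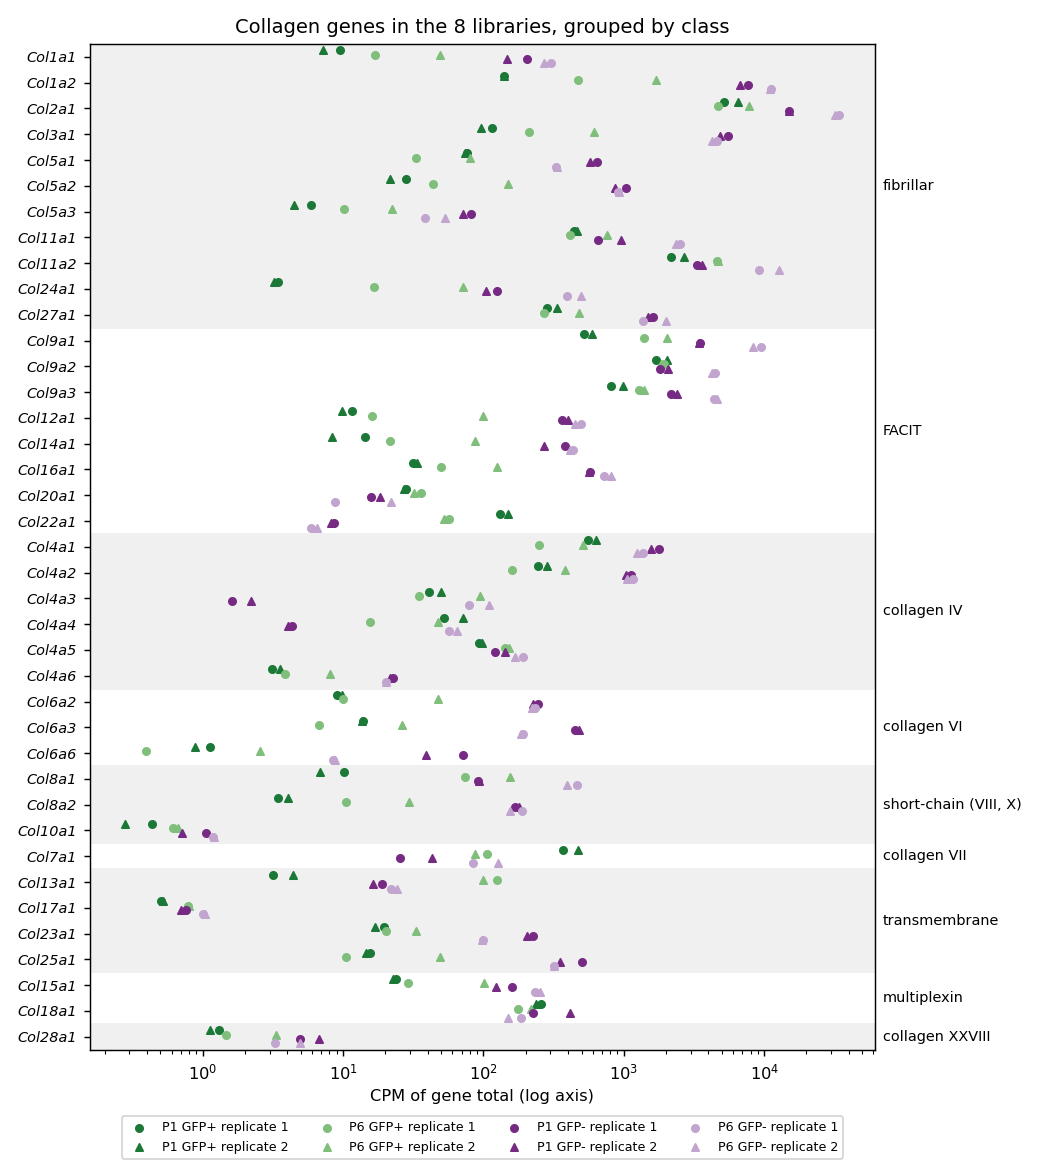
CPM of the gene total (x axis, log scale) for the 39 collagen genes (y axis, grouped by class), with circles for replicate 1 and triangles for replicate 2 of the 4 groups. *Col22a1*, *Col20a1* and, at P1, *Col4a3*, *Col4a4* and *Col7a1* have GFP+ points to the right of the GFP- points, and *Col13a1* has its P6 GFP+ points (99.5 and 125 CPM) to the right of the others.

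The first comparison asked how supporting cells differed from the other cochlear cells at P1. Most collagen genes were lower in GFP+ cells, by as much as 49.6-fold for *Col6a6*, and a small group was higher, led by *Col4a3* at 24.9-fold. At p and adjusted p below 0.01, 27 of the 39 were lower in GFP+ cells, 5 were higher and 7 did not pass. Of all 18682 genes tested, 20.7% were lower and 16.6% higher. At the study's further criterion of a change above 4-fold, 23 were lower and 4 higher, against 11.4% and 6.46% of all genes tested. The median log2 fold change was -2.51 over the collagens and 0.01 over all genes. Replicates did not overlap for 32 genes in the lower and 5 in the higher direction (44.9% and 34.5% of all genes tested).

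Among the fibrillar chains the largest differences were those of *Col1a2*, *Col3a1* and *Col5a2*. *Col1a2* was at 139 and 139 CPM in P1 GFP+ replicates 1 and 2 and at 7638 and 6773 CPM in P1 GFP- cells, which made it 48.1-fold lower (log2 fold change -5.59, SE 0.18, adjusted p = 1.16e-05). *Col3a1* was at 115 and 95.3 CPM in GFP+ cells and at 5563 and 4846 CPM in GFP- cells (-5.52, SE 0.21, adjusted p = 1.62e-05). *Col5a2*, a type V chain that helps to start type I fibrils, was at 28.3 and 21.7 CPM against 1032 and 868 CPM (-5.14, SE 0.20, adjusted p = 1.90e-05). In each of these the lowest GFP- library lay far above both GFP+ libraries. *Col24a1*, *Col1a1*, *Col5a3*, *Col5a1* and *Col27a1* were also lower, by 31.7-, 19.3-, 13.5-, 7.55- and 4.69-fold. Of the 11 fibrillar genes 9 were lower and 2, *Col11a1* and *Col11a2*, did not pass.

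*Col1a1*, which encodes the partner of *Col1a2* in type I collagen, had few counts for such a chain. It was at 9.51 and 7.19 CPM in P1 GFP+ cells, 205 and 147 in P1 GFP-, 16.9 and 48.8 in P6 GFP+ and 304 and 271 in P6 GFP-. Per kb of exon this was 0.0402 to 0.126 of *Col1a2* in the 8 libraries. *Col6a1*, one of the genes below the filter, had 0 counts in 5 libraries and 2, 4 and 6 in the others, while *Col6a2*, whose product joins the same trimer, was at 9.10 to 243 CPM. In the GENCODE annotation of NCBIM37, 1.66% of the exon bases of *Col1a1* and 0% of those of *Col6a1* were shared with another gene. The annotation and mode used for counting are not given in the sources used here.

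The cartilage-type and tectorial membrane collagens had smaller differences, and some did not pass. *Col2a1* was at 5147 and 6521 CPM in P1 GFP+ cells and at 15116 and 15014 in P1 GFP- cells (log2 fold change -1.27, SE 0.19, adjusted p = 0.00228). For collagen IX, a FACIT that sits on type II fibrils, *Col9a1* was at 517 and 589 CPM against 3501 and 3439 (-2.55, SE 0.13, adjusted p = 4.13e-05), *Col9a3* at 809 and 987 against 2158 and 2399 (-1.24, SE 0.14, adjusted p = 0.000743), and *Col9a2* at 1697 and 2043 against 1805 and 2068 (0.05, SE 0.14, adjusted p = 0.787). The 3 chains of 1 trimer therefore had unlike ratios. Per kb, *Col9a1* was at 0.184 and 0.174 of *Col9a2* in P1 GFP+ cells and at 1.17 and 1.00 of it in P1 GFP- cells. *Col11a1* was at 443 and 465 CPM against 656 and 952 (-0.72, SE 0.18, adjusted p = 0.018), and *Col11a2* at 2154 and 2669 against 3296 and 3609 (-0.42, SE 0.15, adjusted p = 0.0622). GFP+ libraries lay below GFP- libraries for *Col11a1* and *Col11a2*, without passing the threshold. The calls for *Col2a1* and *Col28a1* were lost without either P1 GFP+ library and that for *Col9a3* without replicate 1.

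Among the other classes, each of the 3 collagen VI genes, which form beaded filaments around cells, was lower in GFP+ cells. *Col6a6* was at 1.13 and 0.884 CPM in GFP+ cells and at 71.8 and 39.3 CPM in GFP- cells (log2 fold change -5.63, SE 0.38, adjusted p = 0.000101). *Col6a3* and *Col6a2* were 31.4- and 23.2-fold lower. The short-chain collagen VIII gene *Col8a2*, known from the membrane under the corneal endothelium, was at 3.43 and 4.06 CPM against 167 and 179.9 (-5.44, SE 0.12, adjusted p = 9.99e-06), and *Col8a1* was 9.95-fold lower. *Col10a1*, the collagen of hypertrophic cartilage, was at 0.281 to 1.21 CPM over the 8 libraries and passed in no comparison. FACIT genes *Col12a1*, *Col14a1* and *Col16a1*, associated with fibrils of dense connective tissue, were 32.9-, 26.3- and 16.3-fold lower. Of the 4 transmembrane collagens, *Col25a1*, *Col23a1* and *Col13a1* were 26.2-, 11.0- and 4.38-fold lower, and *Col17a1*, a hemidesmosome component, stayed at 0.502 to 0.765 CPM. *Col15a1* and *Col28a1* were 5.68- and 4.40-fold lower. *Col18a1*, whose product yields endostatin, was at 258 and 238 CPM against 226 and 412, and these overlapped.

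The 5 genes that were higher in P1 GFP+ cells came from collagens IV and VII and the FACIT class. *Col4a3* was at 40.8 and 49.7 CPM in P1 GFP+ cells and at 1.61 and 2.22 CPM in P1 GFP- cells (log2 fold change 4.64, SE 0.20, adjusted p = 2.28e-05). Its head-to-head neighbour *Col4a4* was at 52.6 and 71.1 CPM against 4.33 and 4.07 (3.98, SE 0.17, adjusted p = 2.28e-05). *Col7a1*, the chain of the anchoring fibrils that hold epithelia to the tissue below, was at 369 and 474 CPM against 25.5 and 43.3 (3.71, SE 0.27, adjusted p = 0.000137). *Col22a1*, a FACIT known from tissue junctions such as that of muscle and tendon, was at 130.1 and 149 CPM against 8.58 and 8.19 (4.16, SE 0.11, adjusted p = 9.99e-06). In these 4 genes the lower GFP+ library lay far above the higher GFP- library. *Col20a1*, another FACIT, was at 27.9 and 27.0 CPM against 15.7 and 18.4 (0.79, SE 0.13, adjusted p = 0.00331), and its call was lost without either GFP+ library and in the fit of all 8 libraries.

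Marker lists of several other cell types moved with the lower genes, while others were mixed. Mesenchyme and fibrocyte markers were lower in P1 GFP+ cells in 10 of 10 genes. The 8 osteoblast markers summed to 4.06 and 3.74 CPM in GFP+ cells against 93.2 and 87.6 CPM in GFP- cells. Of these 8 genes 6 were tested, and all 6 were lower. *Bglap2* was near 0 in both fractions (0 CPM in both GFP+ libraries, 0.0528 and 0 CPM in GFP- cells), as was *Bglap* (0.0218 and 0.201 against 0.0528 and 0.0634 CPM). Endothelial markers were lower in 8 of 8, macrophage markers in 7 of 7, melanocyte markers in 6 of 6 and chondrocyte markers in 6 of 8. Pericyte markers were lower in 5 of 6, Schwann cell markers in 5 of 7 and neuron markers in 5 of 7, with 1 gene higher in each list. Sums of the pericyte markers (712 and 788 CPM in GFP+, 830 and 746 in GFP- cells) and neuron markers (340 and 329 against 203 and 639 CPM) overlapped between the fractions. Hair cell markers moved with the higher genes, as 6 of 8 were higher in GFP+ cells and their sum was 259.5 and 332 CPM in GFP+ cells against 55.9 and 51.6 CPM in GFP- cells. The part of these cell types in the collagen differences was not tested.

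**Figure D3:**
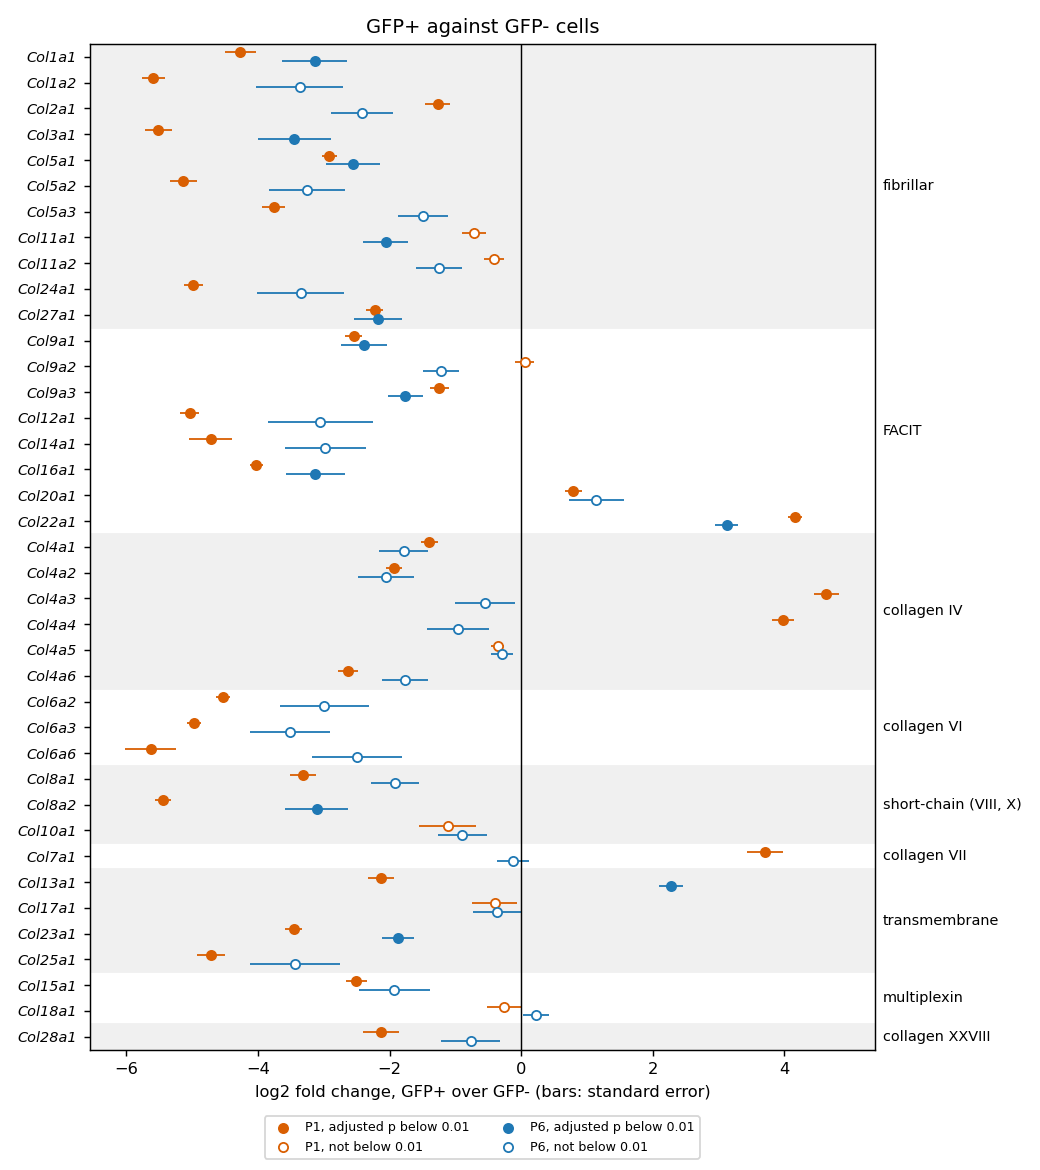
Log2 fold change of GFP+ over GFP- cells (x axis, bars are standard errors) for the 39 collagen genes (y axis) at P1 (orange) and P6 (blue), with filled points where the adjusted p was below 0.01. Most points lie left of 0 at both ages, *Col22a1* lies right of 0 at both, and *Col4a3*, *Col4a4* and *Col7a1* lie right of 0 at P1 alone.

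At P6 the same comparison had a like direction for most genes and a wider spread. *Col22a1* and *Col13a1* were higher in GFP+ cells, 8.72- and 4.85-fold, and 10 genes were lower, from 3.40-fold for *Col9a3* to 10.9-fold for *Col3a1*. Over all 18294 genes tested 7.72% were higher and 5.19% lower. Past 4-fold there were 2 higher and 8 lower collagen genes, against 4.88% and 3.10% of all genes. The median log2 fold change was -1.93 over the collagens and -0.02 over all genes. In 32 genes both GFP+ libraries lay below both GFP- libraries, and in 3 above (37.6% and 35.7% of all genes tested). These counts depend on single libraries. The 10 lower calls became 31 without P6 GFP+ replicate 2, 28 without P6 GFP+ replicate 1, and 0 without either P6 GFP- library. Over the whole table the lower calls (950) became 4337, 2851, and 7 or 0 in the same fits. *Col13a1* was not called without either P6 GFP- library, nor *Col22a1* without P6 GFP- replicate 2, when no gene of the whole table was called.

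Both genes that were higher kept their replicates apart. *Col22a1* was at 56.7 and 52.0 CPM in P6 GFP+ replicates 1 and 2 and at 5.93 and 6.48 CPM in P6 GFP- cells (log2 fold change 3.12, SE 0.18, adjusted p = 0.000732). *Col13a1*, a transmembrane collagen of adhesion sites such as the neuromuscular junction, was at 125 and 99.5 CPM in P6 GFP+ cells and at 22.0 and 24.2 CPM in P6 GFP- cells (2.28, SE 0.19, adjusted p = 0.00145). In both genes P6 GFP+ replicate 1, the library with fewer mesenchyme counts, had the higher value. Of the hair cell markers 6 of 8 were higher in GFP+ cells at P6, with sums of 178 and 183 CPM against 30.0 and 43.8 CPM, and their part in these 2 genes was not tested.

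Among the lower genes, GFP+ replicate 2 lay nearer to the GFP- cells than replicate 1. *Col3a1* was at 209 and 614 CPM in P6 GFP+ replicates 1 and 2 and at 4629 and 4278 CPM in P6 GFP- cells (log2 fold change -3.45, SE 0.55, adjusted p = 0.00855). *Col1a1* (values above) had a log2 fold change of -3.14 (SE 0.49, adjusted p = 0.00803). *Col16a1* was at 50.1 and 125 CPM against 717 and 806 (-3.13, SE 0.45, adjusted p = 0.00637), *Col8a2* at 10.4 and 29.3 against 187 and 154 (-3.11, SE 0.48, adjusted p = 0.00766), and *Col5a1*, a type V chain, at 33.3 and 80.2 against 331 and 334 (-2.56, SE 0.41, adjusted p = 0.00854). *Col9a1*, *Col27a1*, *Col11a1*, *Col23a1* and *Col9a3* were lower by 5.23-, 4.53-, 4.16-, 3.67- and 3.40-fold. *Col1a2*, at 471 and 1706 CPM against 11096 and 11071, was 10.3-fold lower but did not pass (adjusted p = 0.0147), and *Col2a1*, at 4656 and 7846 against 34336 and 31825, was 5.34-fold lower with adjusted p = 0.0147. None of the 3 collagen VI genes passed, at adjusted p = 0.0103 for *Col6a3*, 0.0229 for *Col6a2* and 0.0392 for *Col6a6*.

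Replicate 2 of the P6 GFP+ cells exceeded replicate 1 by more than 2-fold in 23 of the 39 genes. Ratios ran from 0.797 for *Col13a1* to 6.46 for *Col6a6*. No gene passed 2-fold between the replicates of P1 GFP+ or P1 GFP- cells, and 1 did between those of P6 GFP- cells (*Col20a1*, named after its values were seen). Genes with the largest ratios after *Col6a6* were *Col12a1* (6.22), *Col6a2* (4.81), *Col25a1* (4.65) and *Col24a1* (4.25), whereas *Col9a2*, *Col9a3*, *Col11a2* and *Col4a5* lay between 0.945 and 1.08. Summed markers moved alongside, with mesenchyme and fibrocyte markers 3.44 times, osteoblast markers 3.87 times, endothelial markers 3.55 times and chondrocyte markers 2.56 times as high in replicate 2, and supporting cell markers 0.72 times. The part of these cells in the collagen values was not tested.

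The second question concerned maturation of the supporting cells over the first postnatal week. In GFP+ cells *Col13a1* and *Col8a1* rose and *Col7a1* and *Col22a1* fell, and the other 35 genes did not pass. Over all 17213 genes tested, 2.86% rose and 1.95% fell. Past 4-fold, 2 collagen genes rose and 1 fell, against 1.63% and 0.930% of all genes. The median log2 fold change was 0.88 over the collagens and 0.00 over all genes. Both P6 libraries lay above both P1 libraries in 24 genes and below them in 5 (29.3% and 41.1% of all genes tested).

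*Col13a1* went from 3.19 and 4.38 CPM at P1 to 125 and 99.5 CPM at P6, a rise of 32.1-fold (log2 fold change 5.0, SE 0.24, adjusted p = 0.00181). This call was kept without each library in turn. *Col8a1* went from 10.1 and 6.83 CPM to 73.9 and 155 CPM (3.83, SE 0.42, adjusted p = 0.00656). *Col7a1* went from 369 and 474 CPM to 106 and 87.4 CPM (-2.03, SE 0.19, adjusted p = 0.00487), and *Col22a1* from 130.1 and 149 CPM to 56.7 and 52.0 CPM (-1.27, SE 0.13, adjusted p = 0.00591). Calls for *Col8a1*, *Col7a1* and *Col22a1* were lost without P1 GFP+ replicate 2, a fit in which fewer genes of the whole table passed in either direction. *Col9a1*, at 1393 and 2043 CPM in P6 GFP+ cells, had a log2 fold change of 1.72 (SE 0.23) and missed the threshold with adjusted p = 0.0102. *Col24a1* (3.79, SE 0.70, adjusted p = 0.0232) and *Col1a2* (3.04, SE 0.60, adjusted p = 0.0271) had large differences that did not pass. The number that rose was 29 without P6 GFP+ replicate 1, 18 without P6 GFP+ replicate 2 and 6 without P1 GFP+ replicate 1, and the number that fell was 8 without P6 GFP+ replicate 2. Of all genes tested 493 rose, 3768 without P6 GFP+ replicate 1, 3927 without P6 GFP+ replicate 2 and 514 without P1 GFP+ replicate 1, and 335 fell, 3604 without P6 GFP+ replicate 2.

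Markers of several other cell types, but not of all, also had higher sums in P6 than in P1 GFP+ cells, most of all in P6 GFP+ replicate 2. From P1 to P6, in the order of the replicates, osteoblast markers went from 4.06 and 3.74 CPM to 49.6 and 192 CPM, with 1 of 8 genes past the threshold. Mesenchyme and fibrocyte markers went from 108 and 119 to 354 and 1219 CPM, chondrocyte markers from 72.5 and 47.5 to 131 and 334 CPM, and endothelial markers from 36.2 and 31.2 to 84.2 and 299 CPM, with 0 genes past the threshold in each list by edgeR. Medians of the log2 fold change over the tested genes of these 4 lists were 4.62, 2.57, 3.90 and 2.65, against 0.88 over the collagens. Schwann cell, macrophage and melanocyte markers also had higher sums at P6. The pericyte sum went the other way, from 712 and 788 to 297 and 513 CPM. Most of it came from *Notch3* (485 and 534 to 193 and 234 CPM) and *Pdgfrb* (212 and 238 to 37.8 and 96.3 CPM). The other pericyte genes had higher values at P6, and the median log2 fold change of the list was 2.15, with 1 gene called higher and 1 lower. The hair cell sum also went down, from 259.5 and 332 to 178 and 183 CPM. Neuron markers were at 340 and 329 CPM at P1 and at 337 and 316 CPM at P6. The part of these cell types in the collagen values was not tested.

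In GFP- cells the collagen IX and XI genes, the *Col4a3* and *Col4a4* pair and *Col8a1* rose with age. Of the 39 genes 11 rose, 3 fell and 25 did not pass, while 5.04% of all 18920 genes tested rose and 2.34% fell. Past 4-fold, 4 rose and 1 fell (1.43% and 0.418% of all genes). The median log2 fold change was 0.56 over the collagens and -0.02 over all genes. Replicates did not overlap for 21 genes upward and 11 downward (20.5% and 48.9% of all genes tested). Overlap was judged on CPM, which lacks the scaling behind the fold changes. The 11 include *Col3a1* and *Col4a6*, whose log2 fold changes were -0.03 and 0.07. Without either P6 GFP- library 4 rose, *Col4a3*, *Col4a4*, *Col8a1* and *Col24a1*, and none fell, where 218 to 334 genes of the whole table rose and 31 to 34 fell. No collagen gene fell in the fit of all 8 libraries.

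*Col4a3* was at 1.61 and 2.22 CPM in P1 GFP- cells and at 78.5 and 109.6 CPM in P6 GFP- cells, a rise of 55.0-fold (log2 fold change 5.78, SE 0.23, adjusted p = 6.17e-05). *Col4a4* was at 4.33 and 4.07 CPM at P1 and at 56.7 and 65.2 CPM at P6 (4.05, SE 0.14, adjusted p = 5.13e-05). *Col8a1* was at 90.8 and 93.2 CPM and then at 461 and 394 CPM (2.41, SE 0.14, adjusted p = 0.000204). *Col24a1*, a fibrillar chain known from developing bone, was at 124 and 104 CPM and then at 392 and 494 CPM (2.14, SE 0.16, adjusted p = 0.000521). In these 4 genes the P6 libraries lay well above the P1 libraries. *Col11a2* was at 9210.2 and 12675 CPM at P6 (1.85, SE 0.25, adjusted p = 0.00393), *Col11a1* at 2500.1 and 2349.6 CPM (1.79, SE 0.22, adjusted p = 0.00264), and *Col7a1* at 84.2 and 127 CPM (1.80, SE 0.27, adjusted p = 0.00608).

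Each collagen IX gene rose in GFP- cells, *Col9a1* to 9492 and 8344 CPM (log2 fold change 1.56), *Col9a2* to 4497 and 4245 CPM (1.37) and *Col9a3* to 4361 and 4640.0 CPM (1.17), with adjusted p between 0.00441 and 0.00687. *Col2a1* had a log2 fold change of 1.33 (SE 0.29) that did not pass (adjusted p = 0.0228). *Col15a1*, a multiplexin of vessel and muscle basement membranes, rose 1.97-fold. The 3 genes that fell were *Col6a6*, from 71.8 and 39.3 CPM to 8.54 and 8.73 CPM (-2.49, SE 0.28, adjusted p = 0.00198), *Col6a3*, from 445 and 478 CPM to 192 and 185 CPM (-1.10, SE 0.12, adjusted p = 0.00163), and *Col23a1*, from 227 and 206 CPM to 98.8 and 97.2 CPM (-0.95, SE 0.11, adjusted p = 0.00228). *Col6a2*, at 243 and 226 CPM at P1 and 233 and 221 CPM at P6, had a log2 fold change of 0.15 (SE 0.11, adjusted p = 0.406). All 8 osteoblast markers rose in GFP- cells, and their sum went from 93.2 and 87.6 CPM to 1480.0 and 1439 CPM. Chondrocyte markers went from 273 and 341 CPM to 833 and 707 CPM in sum, with 2 of 8 genes higher and 1 lower. The part of these cells in the rise of the collagen IX and XI genes was not tested, and the partial removal of the lateral wall at P6 cannot be told apart from age.

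**Figure D4:**
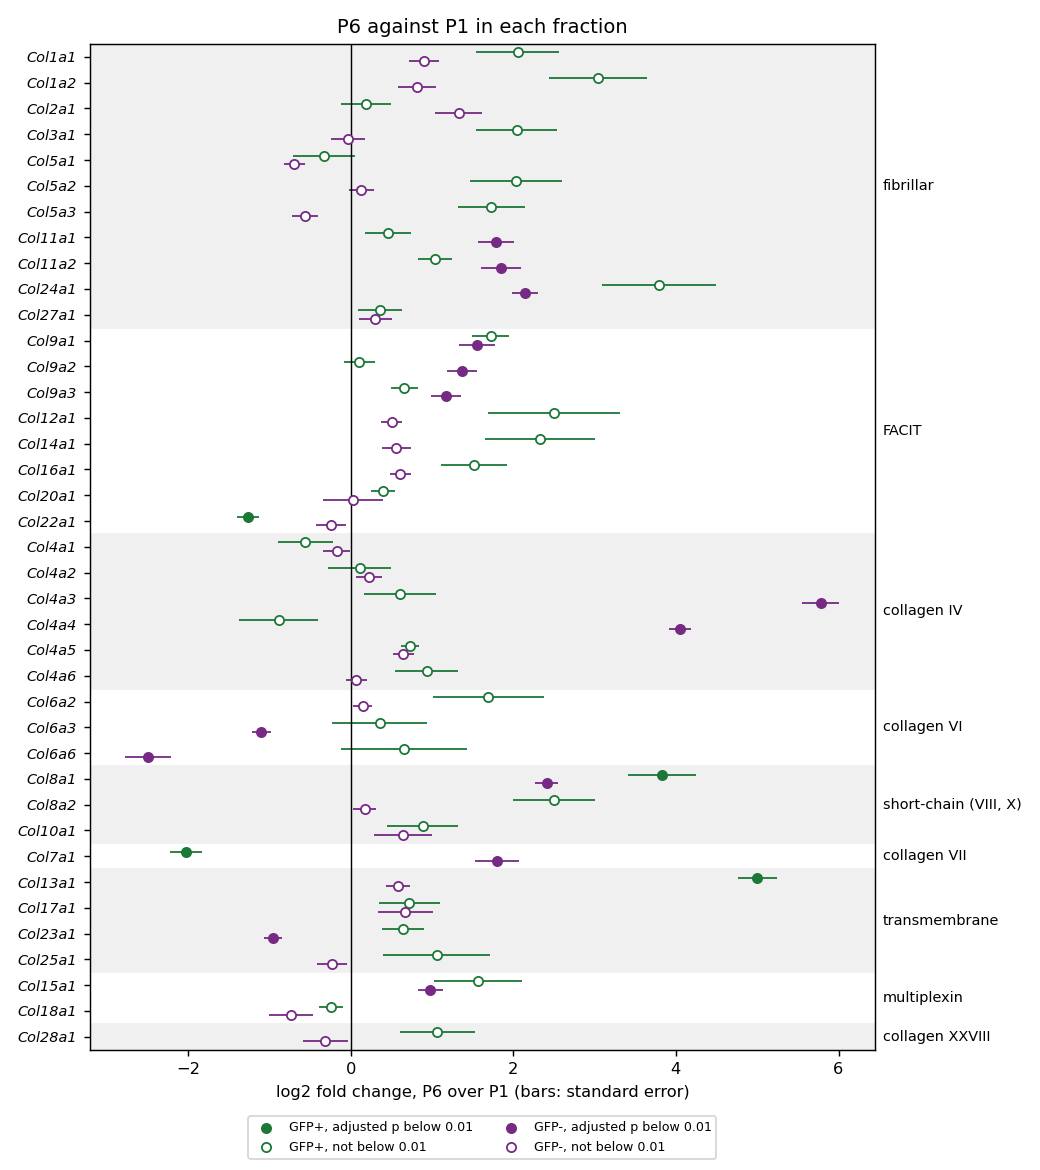
Log2 fold change of P6 over P1 (x axis, bars are standard errors) for the 39 collagen genes (y axis) in GFP+ cells (green) and GFP- cells (purple), with filled points where the adjusted p was below 0.01. *Col13a1* is farthest right in GFP+ cells at 5.0 and *Col4a3* in GFP- cells at 5.78, and *Col7a1* lies at -2.03 in GFP+ and 1.80 in GFP- cells.

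Whether the GFP+ to GFP- ratio itself changed between P1 and P6 was tested with an interaction term fitted to the 8 libraries. It passed for 4 collagen genes, upward for *Col13a1* and downward for *Col4a3*, *Col4a4* and *Col7a1*. Of all 19233 genes tested, 0.946% passed upward and 0.988% downward. *Col13a1* was 4.38-fold lower in GFP+ cells at P1 and 4.85-fold higher at P6 (change of the log2 ratio 4.40, SE 0.27, adjusted p = 0.000296), a call that was kept without each library in turn. *Col7a1* changed by -3.85 (SE 0.41, adjusted p = 0.00256), as its P6 values of 106 and 87.4 CPM in GFP+ and 84.2 and 127 CPM in GFP- cells overlapped. *Col4a3* changed by -5.21 (SE 0.59, adjusted p = 0.00325) and *Col4a4* by -4.96 (SE 0.60, adjusted p = 0.0038). The calls for *Col4a3* and *Col4a4* were lost when any one of the P1 libraries or of the P6 GFP- libraries was left out. That for *Col7a1* was lost when a P1 GFP+ or P6 GFP- library was. Downward calls of the whole table also became fewer in each of these fits. *Col22a1* changed by -1.05 (SE 0.18), which did not pass (adjusted p = 0.0144). Nor did *Col8a1*, which rose in both fractions, at 1.39 (SE 0.45, adjusted p = 0.118). Without P6 GFP+ replicate 1 the upward calls became 19, and without replicate 2 they became 4, where the upward calls of the whole table went from 182 to 1044 and 426.

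Collagen IV was looked at chain by chain because its 6 genes make different networks, a widespread one of the α1 and α2 chains and more restricted ones of the α3, α4 and α5 or the α5 and α6 chains. The major pair was lower in GFP+ cells at P1. *Col4a1* was at 554 and 635 CPM in P1 GFP+ cells, 1789.8 and 1564 in P1 GFP-, 248 and 513 in P6 GFP+ and 1363 and 1242 in P6 GFP-, and its P1 log2 fold change was -1.39 (SE 0.13, adjusted p = 0.00036). *Col4a2* was at 245 and 284 CPM, 1133 and 1032, 159 and 381, and 1172 and 1045 in the same order (-1.93, SE 0.12, adjusted p = 7.33e-05). Neither passed at P6 (adjusted p = 0.0173 for both) nor changed with age past the threshold in either fraction. These results depend on the fit, since both were called lower in GFP+ cells at P6 when either P6 GFP+ library was left out. With every library kept, both were also called lower at P6 by DESeq2, without a filter on low counts, with all 8 libraries and with a replicate block. Lower calls of the whole table became more in each of these fits too. With age in GFP+ cells, both were called lower without P6 GFP+ replicate 2, and *Col4a2* was called higher without P6 GFP+ replicate 1.

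The minor chains behaved otherwise. *Col4a3* and *Col4a4*, low in P1 GFP- cells, were at 34.7 and 94.5 CPM and at 15.6 and 47.1 CPM in P6 GFP+ replicates 1 and 2, and neither differed between the fractions at P6 past the threshold (adjusted p = 0.391 and 0.17), although both were called lower in GFP+ cells without P6 GFP+ replicate 2. *Col4a5* was at 92.7 and 97.2 CPM in P1 GFP+ cells, 120.3 and 141 in P1 GFP-, 142 and 153 in P6 GFP+ and 191 and 168 in P6 GFP-, and passed in no comparison. *Col4a6* was at 3.12 and 3.58 CPM, 22.5 and 21.8, 3.88 and 8.07, and 20.4 and 20.3 in the same order, and was 6.18-fold lower in GFP+ cells at P1 (adjusted p = 6.05e-05). Per kb, *Col4a3* stood at 0.0503 and 0.0536 of *Col4a1* in P1 GFP+ cells, at 0.000615 and 0.00097 in P1 GFP- cells, at 0.0955 and 0.126 in P6 GFP+ cells and at 0.0394 and 0.0604 in P6 GFP- cells. *Col4a5* exceeded *Col4a6* per kb 22.5 to 43.6 times in GFP+ cells and 6.36 to 11.2 times in GFP- cells, with no overlap between the fractions.

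**Figure D5:**
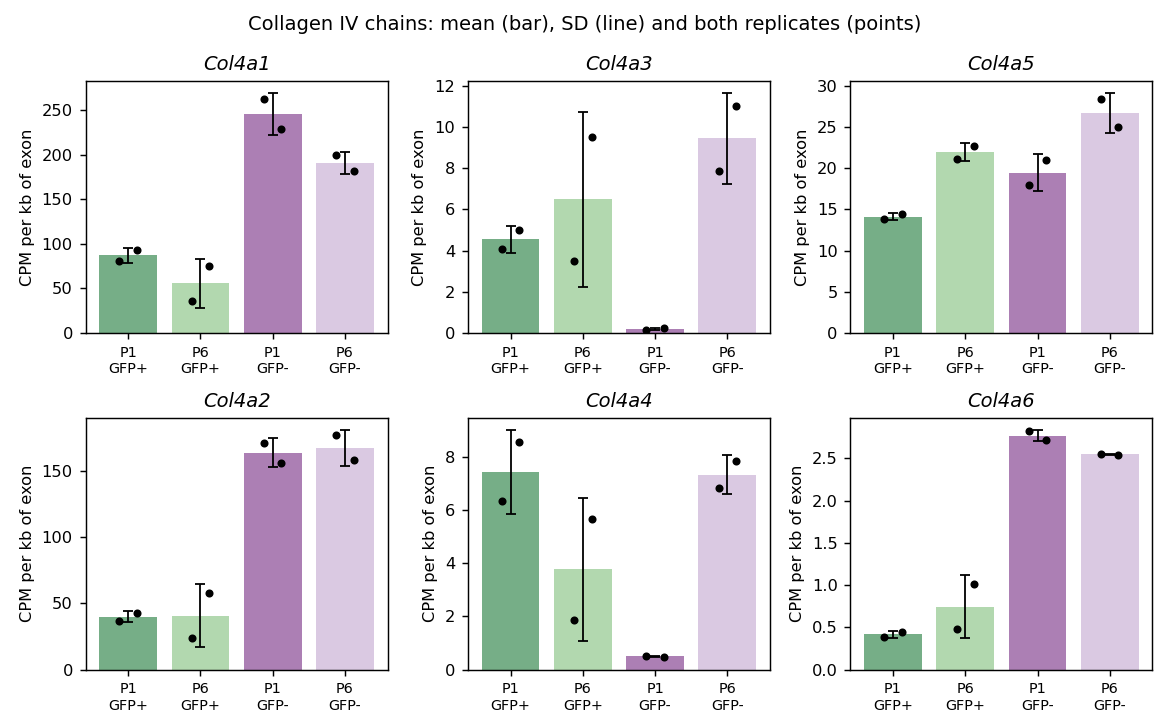
CPM per kb of exon (y axis, from 0, scaled per panel) for the 6 collagen IV genes in the 4 groups (x axis), with bars for the mean, lines for the SD and points for both replicates. *Col4a3* and *Col4a4* are at 0.192 and 0.505 CPM per kb in P1 GFP- cells and at 9.44 and 7.32 in P6 GFP- cells, while the GFP- points of *Col4a1* and *Col4a2* lie above their GFP+ points at both ages.

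Genes that modify, fold, export, process, cross-link or bind collagens were followed from a list of 50. At P1, 32 were lower and 6 higher in GFP+ cells, with a median log2 fold change of -1.36, and 20.7% and 16.6% of all genes tested were lower and higher. The largest differences downward were *Loxl2*, a cross-linking amine oxidase, at -5.28 (SE 0.30, adjusted p = 5.51e-05), *Bgn*, the fibril-binding proteoglycan biglycan, at -5.26 (SE 0.10, adjusted p = 9.99e-06), and *Tll2*, a propeptide-cleaving protease, at -5.18 (SE 0.36, adjusted p = 0.000109). Higher in GFP+ cells were the collagen receptor kinase *Ddr1* at 2.02 (SE 0.22, adjusted p = 0.000664), the lysyl hydroxylase *Plod2* at 1.69 (SE 0.10, adjusted p = 6.28e-05) and the collagen galactosyltransferase *Glt25d2* at 1.56 (SE 0.12, adjusted p = 0.000144). By role, 4 of 5 cross-linking genes, 6 of 7 leucine-rich fibril-binding genes and 6 of 8 receptors were lower.

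At P6, 13 of the 50 were lower and 2 higher (5.19% and 7.72% of all genes tested), and the 2 were *Ddr1* (2.08, SE 0.18, adjusted p = 0.00159) and the prolyl 3-hydroxylase *Leprel1* (1.98, SE 0.30, adjusted p = 0.00716). The median log2 fold change of the list was -1.40, and it was -1.11 without P6 GFP+ replicate 1 and -1.78 without replicate 2. More genes were called lower in either of these fits, in the list as over all genes tested. *Pcolce*, which speeds propeptide removal, was lower by 2.72 on the log2 scale, *Leprel2* by 2.58 and *Loxl1* by 2.56. Between P1 and P6, 5 passed in GFP+ cells, each upward where 2.86% of all genes rose, with *Epyc* (2.67), *Dcn* (2.42) and *Lum* (2.39), 3 small leucine-rich proteoglycans, in front. The median of the list in this comparison was 0.67, and it was 0.89 without P6 GFP+ replicate 1 and 0.40 without replicate 2. More genes passed in both directions in either of these fits, in the list as over all genes tested. In GFP- cells 15 rose, led by the collagen-binding integrin *Itga10* (1.95), *Plod2* (1.70) and the fibril-binding *Fmod* (1.55), and *P4ha3* fell by 0.96 (5.04% of all genes rose and 2.34% fell). The interaction, passed by 0.946% of all genes upward and 0.988% downward, was past the threshold upward for *Dcn* (1.53, adjusted p = 0.00979) and downward for *Adamts2* (-2.10, adjusted p = 0.00413), which removes amino-terminal propeptides, *Plod2* (-1.73, adjusted p = 0.00254) and *Glt25d2* (-1.55, adjusted p = 0.00463). The median interaction of the list was 0.24, and it was 0.62 without P6 GFP+ replicate 1 and -0.04 without replicate 2. Here too, more genes passed in both directions in either fit, in the list as over all genes tested. *Plod2* was at 448 and 419.7 CPM in P1 GFP+ cells, 142 and 148 in P1 GFP-, 408 and 403 in P6 GFP+ and 397 and 429 in P6 GFP-, so both GFP- libraries at P6 lay near the GFP+ level.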

How the data were processed

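RNA-seq counts per gene were analysed for 8 libraries of sorted cochlear cells. Per the labels, TruSeq v2 libraries were sequenced paired-end, and the submitters' processing notes name TopHat 1.4.0, HTSeq and DESeq 1.9.2 with mm9. The counting mode and strand setting are not given in the sources used here. The deposited values were whole counts per gene, not normalized, made by the authors. Of 36536 listed genes 34391 matched the GENCODE annotation of NCBIM37, and HTSeq's summary lines were left out of library totals: 64.7% to 76.2% of their sum fell on genes. Gene totals set the precision, and no interval beyond the replicate SD was computed.

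Comparisons used edgeR 4.0.16 in R 4.3.3 (quasi-likelihood F test, TMM, filterByExpr with a minimum count of 10 and a minimum total of 15) on the 4 libraries of each pair of groups, and all 8 for the interaction, with Benjamini-Hochberg adjustment over all genes tested. A gene was called at p and adjusted p below 0.01, and further above 4-fold. SE was the absolute log2 fold change over the square root of F. CPM was counts scaled to 1000000 gene counts, given per kb of summed exon length between genes. Overlap of replicates was judged on CPM, without TMM scaling. Alternatives were DESeq2 1.42.0, other size factors, other filters, an 8-library fit, a replicate block and leaving out each library. Fits of the processing genes without either P6 GFP+ library were added after the data were seen. Replicates of each group differed by more than sampling noise. Values in full were printed for up to 5 genes per direction and comparison with the largest log2 fold change among those called, the collagen IV pairs, the collagens II, IX and XI, and, of the processing genes, up to 3 per direction. Members, classes and lists were chosen with earlier results of these data known. Promoter and protein tables of another build were not used.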

Additional observations from a re-analysis of the deposited data

Results flagged for a closer look

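4 genes had a GFP+ to GFP- ratio that differed between P1 and P6 by the edgeR interaction test. The change of the log2 ratio, P6 minus P1, was 4.40 for *Col13a1* (adjusted p = 0.000296), which was higher in GFP- cells in 2 of 2 libraries at P1 and in GFP+ cells in 2 of 2 at P6. It was -3.85 for *Col7a1* (adjusted p = 0.00256), -5.21 for *Col4a3* (adjusted p = 0.00325) and -4.96 for *Col4a4* (adjusted p = 0.0038), 3 genes that were higher in GFP+ cells in 2 of 2 libraries at P1. With the P6 GFP+ library whose mesenchyme markers were higher left out, all 4 calls remained, and they remained without the other P6 GFP+ library. *Col13a1* also kept its call without each of the 6 other libraries. *Col4a3* and *Col4a4* lost theirs without any 1 of these 6 and *Col7a1* without any 1 of the P1 GFP+ or P6 GFP- libraries. Downward calls of the whole table also became fewer in each of these 6 fits.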

How the results depend on the processing

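With 2 libraries a group, counts of calls varied between fits. In P6 against P1 GFP+ cells *Col4a2* and *Col6a3*, not called with all libraries, were called higher without P6 GFP+ replicate 1 and lower without replicate 2. By the DESeq2 test, without a filter on low counts, in the fit of all 8 libraries and with a replicate block, the genes lower in GFP+ cells at P6 (10) were 27, 28, 28 and 23, or 18, 19, 19 and 17 past 4-fold (8). With library totals they were 4 and 2. Over the whole table the lower genes (950) were 2568, 3095, 2855 and 1407 in those fits and 514 with library totals. Genes that rose in GFP+ cells (2) were 15, 18, 8 and 6 in these fits, or 8, 10, 5 and 5 past 4-fold (2). Over the whole table the genes that rose in GFP+ cells (493) were 1904, 2449, 1542 and 695. In GFP- cells, genes that rose (11) were 18 by DESeq2 and 19 without the filter. They were 8 with library totals, 9 with a filter of 1 CPM in 2 libraries and 9 with all 8 libraries. With library totals the calls for *Col7a1*, *Col9a3* and *Col15a1* were lost. Genes that fell in GFP- cells (3) were 6 without the filter and 0 with all 8 libraries, where the 1 past 4-fold was 0 too. Over the whole table the genes that rose (954) were 1852, 2351, 564, 790 and 540, and those that fell (443) were 1642 and 229, in the same fits. Interaction calls were 7 upward (1) and 5 downward (3) by DESeq2, and 17 and 8 without the filter. Over the whole table they were 891 upward (182) and 548 downward (190) by DESeq2, and 1658 and 742 without the filter. With TMM-scaled library sizes the summed collagen share was 4.52% in P1 GFP- (4.93%) and 9.62% in P6 GFP- cells (8.99%). Library totals moved the median log2 fold change of all genes from -0.02 to -0.21 in P6 against P1 GFP- cells.

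Leaving out each library gave ranges, lower and higher direction named in turn. At P1, 24 to 31 genes were lower (21 to 23 past 4-fold) and 4 to 5 higher (4 to 4). At P6, 0 to 31 were lower (0 to 25) and 0 to 3 higher (0 to 2). In GFP+ cells 1 to 29 rose (1 to 14) and 0 to 8 fell (0 to 1). In GFP- cells 4 to 15 rose (4 to 6) and 0 to 5 fell (0 to 1). The interaction gave 1 to 19 upward and 0 to 5 downward. Calls over the whole table varied between these fits as well. A group left with 1 library was assumed to vary like the other. Causes were not tested, beyond the smaller number of libraries.

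Replicate numbers were not shown to pair the libraries: differences between same-numbered replicates correlated at r = 0.021, 0.086, -0.082 and -0.28 across genes in the 4 comparisons. A crossed block for the last, added after seeing the data, gave 13 that rose and 6 that fell.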
